A study of Danio rerio with 4 samples.

Results

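A set of 10 genes of red blood cells was compared between zebrafish embryos in which hace1 was targeted and their controls. The genes were gata1a, alas2, urod, fech, blvrb, slc4a1a, epb41b, cahz, hbbe3 and hbae3, taken by their symbols from the deposited tables, 10 of 32512 annotated genes. Of these 10 genes, 8 had values, and urod and hbbe3 were listed at 0 in all 4 libraries and were not quantified. By the deposited gene counts, the erythroid transcription factor gene gata1a was 2.64-fold and the biliverdin reductase gene blvrb 1.84-fold higher in hace1 morphants. Both passed the test. Neither the globin gene hbae3 nor the heme synthesis genes alas2 and fech did, nor did slc4a1a, epb41b and cahz, and none of the 8 fell. By the counts on its exons the rise of blvrb was smaller, and its size was not tested on those counts.

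All embryos were of the Tübingen wild-type strain (TU), were taken whole at 48 hpf (hours post fertilisation), and had received an injection of a morpholino (MO), an antisense oligonucleotide that blocks its target RNA. The hace1 group carried a splice-blocking hace1-HECT MO, aimed at a splice site in the sequence for the catalytic HECT domain of this E3 ubiquitin ligase. The control group carried a standard control MO. RNA of about 100 embryos made up each of 6 samples per group, and each library pools 3 of them, so there are 2 libraries, A and B, in each group. No label says that the pools came from separate parents, so p-values measure the spread between pools, which may be technical. Each sequencing chip held 2 libraries. Nothing used here says which ones ran together, and if the libraries of a group did, chip and MO cannot be told apart. Both oligonucleotides are shown because they are the only difference between the groups that the labels give, written 5′ to 3′ in lower case.
hace1-HECT morpholino: ccctcgaactgttagacagaataaa
standard control morpholino: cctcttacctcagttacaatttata

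Primitive red cells circulate in the zebrafish embryo at this stage and carry embryonic globins. The zinc-finger factor GATA1 drives the red cell programme, which includes the enzymes of heme synthesis, globin chains and the proteins of the cell membrane. Heme is built from glycine and succinyl-CoA by a chain of enzymes that starts with 5-aminolevulinate synthase (alas2 in red cells) and ends with ferrochelatase (fech), and it is broken down through biliverdin to bilirubin. Zebrafish mutants with anaemia or porphyria are known for gata1a, alas2, urod, fech, slc4a1a and epb41b.

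The libraries held from 5192490 to 10413981 estimated gene counts, and control A was the shallowest. Levels are given in CPM, that is, counts relative to a library size scaled by the trimmed mean of M values (TMM). Genes were tested with limma-voom with Benjamini-Hochberg adjustment over 10832 genes, and called where the adjusted p fell below 0.05. Of all tested genes 2.76% were called, 1.38% higher and 1.38% lower in hace1 morphants. The total RNA of hace1 was 18.6 and 13.5 CPM in controls A and B and 13.7 and 13.5 CPM in hace1 A and B. A splice-blocking MO need not lower that total, so it does not check the knock-down.

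Of the 8 tested genes, 2 rose, 0 fell and 6 were not called, which is 2 of 8 against the 1.38% of all tested genes called higher. The log2 fold change was above 0 for all 8, as it was for 50.5% of tested genes, and their median was 0.45 against 0.0051 over all tested genes. Both hace1 libraries lay above both controls for gata1a, blvrb, slc4a1a, epb41b and cahz, 5 of the 8, and for 26.7% of tested genes, while 26.9% had both hace1 libraries below. The groups overlapped for alas2, fech and hbae3. An unadjusted p below 0.05 was reached by 4 of the 8 and by 22.4% of all tested genes. The genes were chosen with earlier results of these data known, so setting them beside these shares is no test. The number called depended on the libraries: it was 6 without control B, 3 without control A, and 0 without hace1 A or without hace1 B. In each of these fits the lone library of a group is assumed to vary like the pair kept in the other group, so the spread comes from the hace1 pair when a control is left out and from the control pair when a hace1 library is. The share of all tested genes called moved as well, to 23.9% without control B, 15.3% without control A, 0.0943% without hace1 A and 0.0564% without hace1 B. In whole embryos, a change in the number of red cells cannot be told apart from a change in RNA per red cell.

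**Figure D1:**
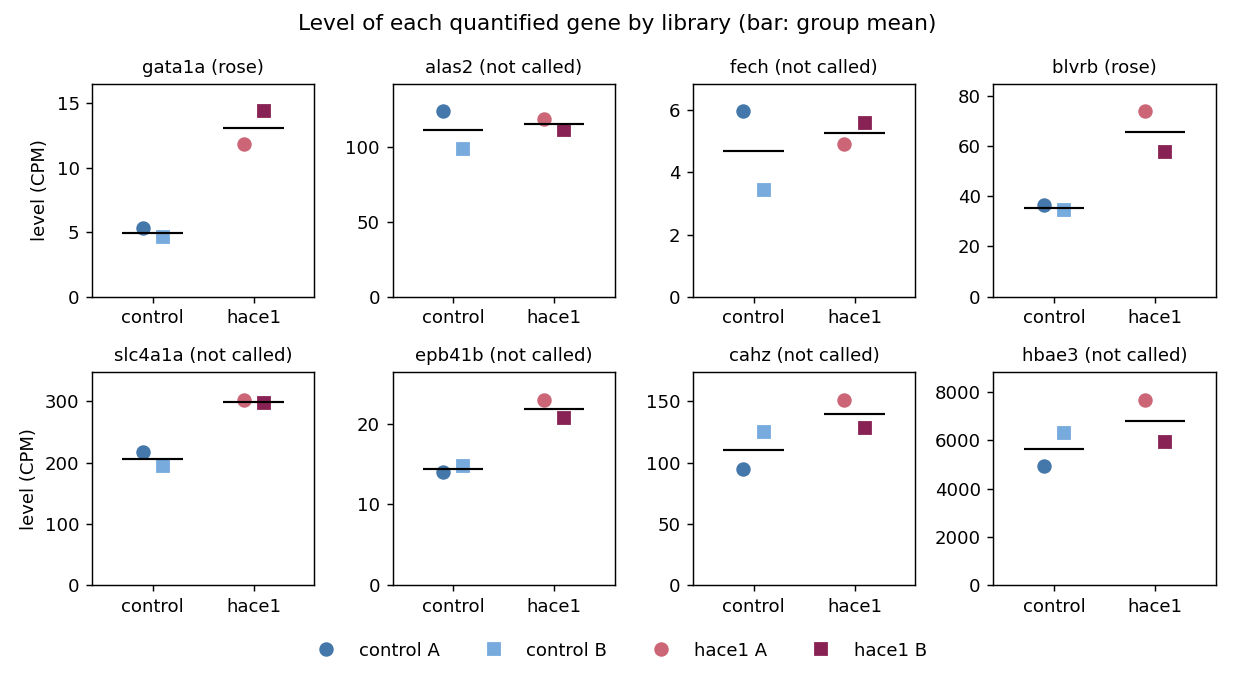
Level of each of the 8 quantified genes in CPM (y axis, from 0) in the 2 control and 2 hace1 libraries (points), with a bar at each group mean. The hace1 points of gata1a, blvrb, slc4a1a, epb41b and cahz lie above both control points, and those of alas2, fech and hbae3 overlap with them.

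Gata1a (ENSDARG00000013477, Zv9 chromosome 11, 26344512 to 26352415, minus strand) encodes the transcription factor that commits blood progenitors to the red cell fate. Its level was 5.31 and 4.59 CPM in controls A and B and 11.8 and 14.3 CPM in hace1 A and B. Both hace1 libraries were thus over 2 times as high as either control. The group means were 4.95 ± 0.508 and 13.1 ± 1.81 CPM (SD; n = 2 in each group), a log2 fold change of 1.40 ± 0.26 SE (adjusted p = 0.0277, limma-voom). Only 0.434% of tested genes, 47 in number, had a log2 fold change as large as that or larger. The counts behind these levels were low, at 30.7 and 39.4 estimated counts in the controls and 110 and 142 in the hace1 libraries. The log2 fold change stayed between 1.25 and 1.53 without any 1 library, but the call was lost without hace1 A (adjusted p = 0.258, limma-voom) or hace1 B (0.538). It was also lost when the authors' own log2 values were tested (1.41, limma adjusted p = 0.128).

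The rise of gata1a was seen in both exon regions with enough counts to be tested, regions 3 and 6. Of its 6 exon regions, 5 had both hace1 libraries above both controls, in CPM. In regions 2, 4 and 5 the controls held from 0 to 3.34 counts. Here and for the genes below, no share over all exon regions was taken to set beside such counts. Region 3 held 3.00 and 11.6 counts in the controls and 25.6 and 35.0 in the hace1 libraries. The last region, 1555 bases at 26344512 to 26346066, held 21.7 and 20.9 counts in the controls and 59.5 and 60.5 in the hace1 libraries. Region 5, 126 bases at 26346148 to 26346273, held 1.00 and 0.68 counts in the controls and 8.55 and 17.3 in the hace1 libraries. The first region, with at most 1.66 counts in any library, was too shallow to compare. The use of the exons did not pass the test (limma diffSplice over the 2 regions with enough counts, adjusted p = 1.00).

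The deposited shares of the 2 gata1a transcripts differed most between the controls. Transcript gata1a-001 was given 32.7% and 71.3% of the gene in controls A and B, and 54.8% and 56.2% in hace1 A and B. Both hace1 values lie between those of the controls. These are estimates with no depth of their own, and no test was made.

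The duplicate gene gata1b (ENSDARG00000059130, chromosome 8) was lower in both hace1 libraries, without a call. It stood at 4.23 and 1.18 CPM in controls A and B and 1.09 and 0.749 CPM in hace1 A and B, a log2 fold change of -1.16 ± 0.59 SE that was not called (limma-voom adjusted p = 0.266). Control A alone stood apart, and the counts were 24.5 and 10.1 in the controls and 10.1 and 7.4 in the hace1 libraries. Without control B the difference became -2.19 and was called (limma-voom adjusted p = 0.000140), and without control A it was -0.37 and not called (0.715). No source used here says how reads were shared between duplicate genes, so the split between gata1a and gata1b is uncertain. With the levels of both genes added the rise would be by a smaller factor than that of gata1a alone. The sum was not tested.

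In the heme pathway, neither end of the chain was called. Alas2 (ENSDARG00000038643, chromosome 8, 21891896 to 21907046) encodes the first and rate-limiting enzyme in red cells. It was at 124 and 98.8 CPM in controls A and B and 119 and 111 CPM in hace1 A and B, and both hace1 libraries lay between the controls. The group means were 111 ± 17.5 and 115 ± 5.56 CPM (SD; n = 2 in each group), with a log2 fold change of 0.05 ± 0.17 SE (adjusted p = 0.881, limma-voom). Its sign was not stable, at -0.10 with total counts in place of TMM, -0.12 without control B, -0.00044 without hace1 A but 0.22 without control A. The gene ela2l overlaps its 3′ end on the opposite strand, at a mean of 2.55 CPM.

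Fech (ENSDARG00000003462, chromosome 21, 1970738 to 1993012) encodes ferrochelatase, which places iron into protoporphyrin. It was at 5.97 and 3.43 CPM in controls A and B and 4.92 and 5.61 CPM in hace1 A and B, from 29.5 to 55.4 counts per library. The controls spanned the hace1 libraries. They differed by 0.80 on the log2 scale, against a median absolute difference of 0.29 between the controls over all tested genes. The log2 fold change was 0.26 ± 0.32 SE (limma-voom adjusted p = 0.667), and it was -0.20 without control B and 0.61 without control A.

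Urod (ENSDARG00000006818, chromosome 2, 27704338 to 27723973), which encodes uroporphyrinogen decarboxylase, was listed at 0 in every library. So were 59.3% of all annotated genes, among them alas1, the gene of the aminolevulinate synthase of other tissues. All but 3 of the genes listed at 0 have no exon lines in the deposited table. Nothing is said here of their levels.

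Of the enzymes between alas2 and fech, none was called. Of 10 annotated genes for the enzymes of heme synthesis, 8 were tested, 0 rose and 0 fell, with a median log2 fold change of 0.33. Both hace1 libraries lay above both controls for 4 of the 8, against 26.7% of all tested genes. The gene hmbsb, for hydroxymethylbilane synthase, was at 28.9 and 30.4 CPM in controls A and B and 50.2 and 44.7 CPM in hace1 A and B. Its log2 fold change of 0.67 ± 0.17 SE fell just short of the threshold (limma-voom adjusted p = 0.0528), and it passed without control A (0.00298), without control B (0.00238), and with sample quality weights (0.0360). Its duplicate hmbsa had a log2 fold change of 0.89 ± 0.33 SE (adjusted p = 0.144, limma-voom) at a mean of 5.46 CPM.

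The other enzymes gave smaller differences. Alad, for aminolevulinate dehydratase, had a log2 fold change of 0.40 ± 0.19 SE (adjusted p = 0.251, limma-voom), and cpox, for coproporphyrinogen oxidase, 0.47 ± 0.20 (0.201). Hmbsa and cpox passed without control A, at limma-voom adjusted p = 0.00583 and 0.0268. Uros had 0.16 ± 0.25 (0.743) and ppox 0.01 ± 0.25 (0.987), and the groups overlapped for both. The wider list of heme synthesis and of the import of its substrates, with 14 tested genes, had 0 called and a median of 0.19. Its member of highest level per length was ISCU, an iron-sulfur cluster scaffold gene, with a log2 fold change of 0.06 ± 0.19 SE (adjusted p = 0.880, limma-voom).

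**Figure D2:**
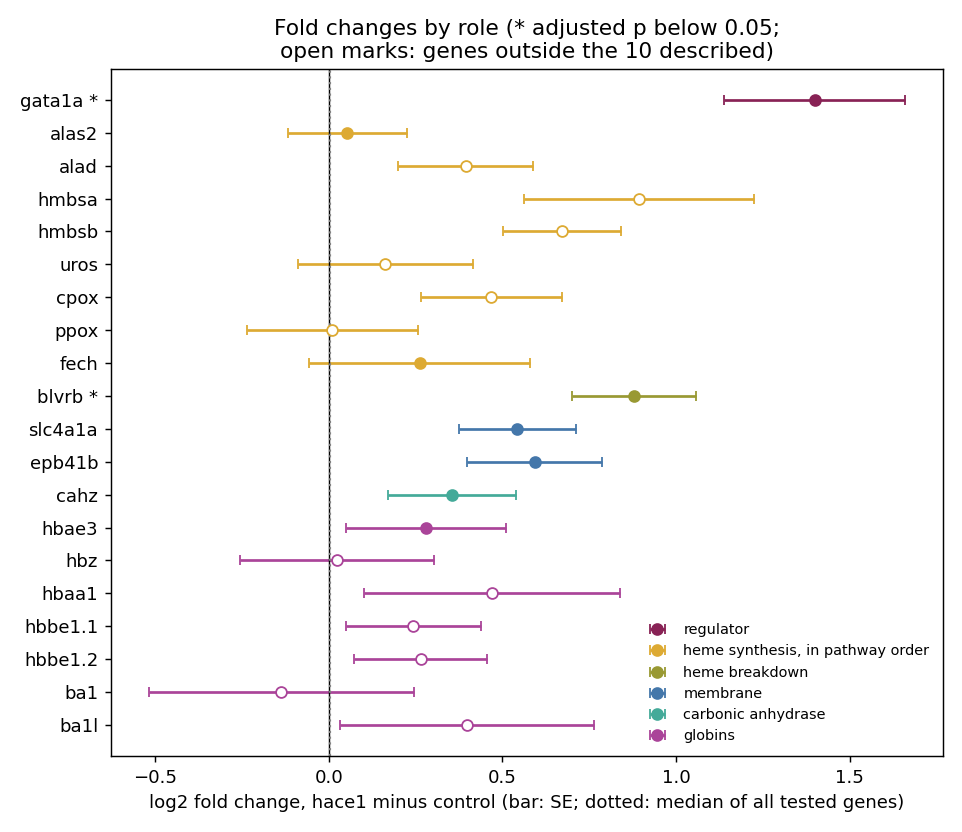
Log2 fold change, hace1 minus control, with its SE (x axis) for the quantified genes by role (filled marks), the other heme enzymes and the other globins (open marks). Gata1a at 1.40 and blvrb at 0.88 carry the only stars, and alas2, fech, uros, ppox, hbz and ba1 lie within 1 SE of 0.

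On the side of heme breakdown, blvrb rose. Blvrb (ENSDARG00000096829, chromosome 18, 44559958 to 44568561) encodes biliverdin reductase B, an NADPH-dependent enzyme of red cells that reduces biliverdins and flavins. Its level was 36.4 and 34.6 CPM in controls A and B and 73.8 and 57.7 CPM in hace1 A and B. The controls lay close together, and both hace1 libraries were well above them. The group means were 35.5 ± 1.31 and 65.8 ± 11.4 CPM (SD; n = 2 in each group), a log2 fold change of 0.88 ± 0.18 SE (adjusted p = 0.0378, limma-voom). Those values used the gene counts, 211 and 297 in controls A and B and 686 and 570 in hace1 A and B. The counts on its own exons were higher, at 263 and 363 in the controls and 699 and 587 in the hace1 libraries. The shortfall of the gene counts was greater in the controls, so the size of the rise depends on which counts are used. It was smaller by exon counts, and the difference between the groups was tested on the gene counts only. The call was lost without hace1 A (0.70, limma-voom adjusted p = 0.464), without hace1 B (1.05, 0.492) and with the authors' log2 values (0.89, limma adjusted p = 0.171).

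Another gene model, named BLVRB in capitals (ENSDARG00000097473, now sertad3; 44560126 to 44576675) runs through blvrb on the same strand, with 5 of its 7 exon regions inside the blvrb locus. By exon counts, the authors' estimates gave it between 5.99% and 15.3% of both genes' counts within the locus, the most in control A. These shares do not use the gene counts from which the blvrb levels above were taken. With both genes' exon counts within the locus added, the level was 53.8 and 46.4 CPM in controls A and B and 80.1 and 63.2 CPM in hace1 A and B. Both hace1 libraries stayed above both controls in that sum, by a smaller factor than in the gene counts, and no test was made of it. The BLVRB model as a whole was lower in both hace1 libraries, with a log2 fold change of -0.53 ± 0.20 SE that was not called (limma-voom adjusted p = 0.158) except without control B (0.000238), so how counts were split between the models bears on the size of the rise.

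Within blvrb the last exon region, 571 bases long, carried between 62.8% and 74.5% of the exon counts, the least in control A. It held 165 and 255 counts in the controls against 520 and 424 in the hace1 libraries. Of the 5 regions, 3, the last among them, had both hace1 libraries above both controls, and 2 overlapped. Region 2, which overlapped, stood at 7.59 and 4.49 CPM in controls A and B and 7.71 and 6.16 in hace1 A and B. Region 3, which also overlapped, stood at 4.68 and 2.91 CPM in the controls and 4.51 and 3.75 in the hace1 libraries. The rise outside the last region was not tested. Exon use did not pass the test (limma diffSplice, adjusted p = 1.00). Of the 6 tested genes of heme breakdown and export, blvrb alone was called, against 2.76% of all tested genes. Hmox2b, for a heme oxygenase, had a log2 fold change of -0.40 ± 0.17 SE (adjusted p = 0.186, limma-voom; 0.00555 without control A) and blvra, for the other biliverdin reductase, 0.07 ± 0.33 (0.923), while the stress-induced oxygenase gene hmox1a was listed at 0.

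The membrane genes slc4a1a and epb41b lay higher in both hace1 libraries without passing the test. Slc4a1a (ENSDARG00000012881, chromosome 3, 19955146 to 19981409) encodes band 3, the chloride-bicarbonate exchanger and chief membrane protein of red cells. It was at 217 and 194 CPM in controls A and B and 302 and 297 CPM in hace1 A and B, and the hace1 libraries lay close together above the controls. The group means were 206 ± 16.0 and 299.7 ± 3.83 CPM (SD; n = 2 in each group), with a log2 fold change of 0.54 ± 0.17 SE (adjusted p = 0.0942, limma-voom). It was called without control A (limma-voom adjusted p = 0.000644) and without control B (0.0187).

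Epb41b (ENSDARG00000029019, chromosome 16, 28700399 to 28738953) encodes protein 4.1, which ties spectrin and actin to the membrane. It was at 14.0 and 14.7 CPM in controls A and B and 22.9 and 20.6 CPM in hace1 A and B. Again the hace1 libraries did not reach down to the controls. The group means were 14.3 ± 0.543 and 21.8 ± 1.62 CPM (SD; n = 2 in each group), and the log2 fold change of 0.59 ± 0.19 SE was not called (limma-voom adjusted p = 0.108) except without control B (0.0445).

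Across exons, slc4a1a had 10 of 22 regions and epb41b 13 of 27 with both hace1 libraries above both controls. Slc4a1a had none with both below, and epb41b had 1. Only 8 regions of epb41b had enough counts to be tested, against 21 of slc4a1a, and most of the 13 epb41b regions were not among those 8. The last region of slc4a1a, 689 bases long, held 28.9% and 45.0% of the exon counts in controls A and B. It held 44.1% and 41.8% in hace1 A and B. The share of the last region was lowest in control A for blvrb, cahz, alas2 and epb41b too, but not for gata1a, fech or hbae3. The cause was not tested. Exon use of slc4a1a was called only without control B (limma diffSplice adjusted p = 0.0279), a setting in which 296 genes were called.

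Of the 18 tested genes for the red cell membrane and skeleton, these 2 among them, 0 rose and 0 fell, their median log2 fold change was -0.09, and 4 had both hace1 libraries above both controls and 5 below, against 26.7% and 26.9% of all tested genes. The largest change in the list was a decrease that was not called, in a gene named ank1 (ENSDARG00000059093), for ankyrin, which ties spectrin to band 3. It was at 38.2 and 31.0 CPM in the controls and 19.9 and 22.6 in the hace1 libraries (log2 fold change -0.68 ± 0.19 SE, limma-voom adjusted p = 0.0648), and it passed without control A (0.0264), without control B (0.000130) and with sample quality weights (0.0378). The other gene annotated as ank1 (ENSDARG00000092143) had 0.12 ± 0.18 (0.722). The spectrin gene sptb had a log2 fold change of 0.57 ± 0.17 SE (adjusted p = 0.0882, limma-voom), and it passed without control A (0.0226) or control B (0.000442). The ammonium transporter gene rhag, another red cell membrane gene, had 0.14 ± 0.17 (0.663). Tmod4, a tropomodulin gene also used in muscle and the list's highest level per length, had 0.53 ± 0.17 (0.0985), and it passed without control A or without control B (0.0163 and 0.00191). The duplicates slc4a1b and epb41a went the other way, at -0.12 ± 0.26 (0.817) and -0.42 ± 0.16 (0.160), and neither was called. Genes of this list besides ank1 were also called lower without control A and without control B.

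Cahz (ENSDARG00000011166, chromosome 2, 29192215 to 29200240) encodes the carbonic anhydrase of zebrafish red cells, which interconverts carbon dioxide and bicarbonate. It was at 95.1 and 125 CPM in controls A and B and 151 and 128 CPM in hace1 A and B. The groups did not overlap, but control B lay just below hace1 B, and 5 of the 7 exon regions of cahz overlapped. The group means were 109.9 ± 21.0 and 139.6 ± 16.4 CPM (SD; n = 2 in each group), with a log2 fold change of 0.36 ± 0.18 SE (adjusted p = 0.275, limma-voom), and of 0.54 without control B, where it was called (0.00451). Among 5 tested carbonic anhydrase genes, 1 rose, against 1.38% of all tested genes. This was ca8, which encodes a related protein without enzyme activity. It was at 4.38 and 4.52 CPM in the controls and 9.67 and 9.45 in the hace1 libraries (log2 fold change 1.08 ± 0.26 SE, limma-voom adjusted p = 0.0495).

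Hbae3 (ENSDARG00000079305, chromosome 3, 55998269 to 55999416, minus strand) encodes an embryonic alpha globin and was the most abundant of the genes by far, at between 0.552% and 0.725% of all counts of a library. Its level was 4957 and 6304 CPM in controls A and B and 7685 and 5948 CPM in hace1 A and B. Hace1 B lay below control B, so the groups overlapped. The group means were 5631 ± 953 and 6816 ± 1228 CPM (SD; n = 2 in each group), with a log2 fold change of 0.28 ± 0.23 SE (adjusted p = 0.504, limma-voom). Without control B it was 0.44 and called (limma-voom adjusted p = 0.0476), and without control A it was 0.11. The beta globin gene hbbe3 (ENSDARG00000038147, chromosome 12, 21691906 to 21693036) was listed at 0.

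The globin genes lie in a larger cluster on chromosome 3, which holds 13 of them, and a smaller one on chromosome 12, which holds 4. Of these 17 genes, 10 were listed at 0 and 7 had values, and 0 of the 7 was called. The beta globin genes hbbe1.1 and hbbe1.2, near copies whose split is uncertain, had log2 fold changes of 0.24 ± 0.20 SE and 0.27 ± 0.19 (limma-voom adjusted p = 0.491 and 0.437). Both hace1 libraries were above both controls for each, with hbbe1.1 at 1674 and 1900 CPM in the controls and 2190 and 2029 in the hace1 libraries. The alpha globin gene hbz, now hbae5, 3.04 kb from hbbe3, ran from 79.7 CPM in control A to 154 in control B, and the hace1 libraries stood at 138 (A) and 91.2 (B). Its log2 fold change of 0.02 ± 0.28 SE (adjusted p = 0.970, limma-voom) was -0.45 without control A and 0.48 without control B, called in both (0.0230 and 0.0133), so its direction rests on which control is kept.

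The genes hbaa1 (ENSDARG00000079078, now si:ch211-5k11.8), ba1 and ba1l, near the other end of the chromosome 3 cluster, stood between 1.59 and 4.0 CPM in all libraries. Their log2 fold changes were 0.47 ± 0.37 SE, -0.14 ± 0.38 and 0.40 ± 0.37, and none was called (limma-voom adjusted p = 0.480, 0.864 and 0.558). The gene still named hbaa1 (ENSDARG00000097011), which it overlaps, was listed at 0. All 7 globin genes together made up 0.900% and 0.983% of counts in controls A and B, and 1.11% and 0.919% in hace1 A and B. Hace1 B lies between the controls. Hbae3 held from 61.3% to 65.0% of these globin counts, and hbbe1.1 and hbbe1.2 counts together, relative to hbae3 counts, stood at 0.613 and 0.535 in the controls and 0.519 and 0.612 in the hace1 libraries. Globins of other cells gave log2 fold changes of -0.05 ± 0.19 for mb, which encodes myoglobin, and -0.33 ± 0.32 for cygb2, a cytoglobin gene (limma-voom adjusted p = 0.899 and 0.583).

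**Figure D3:**
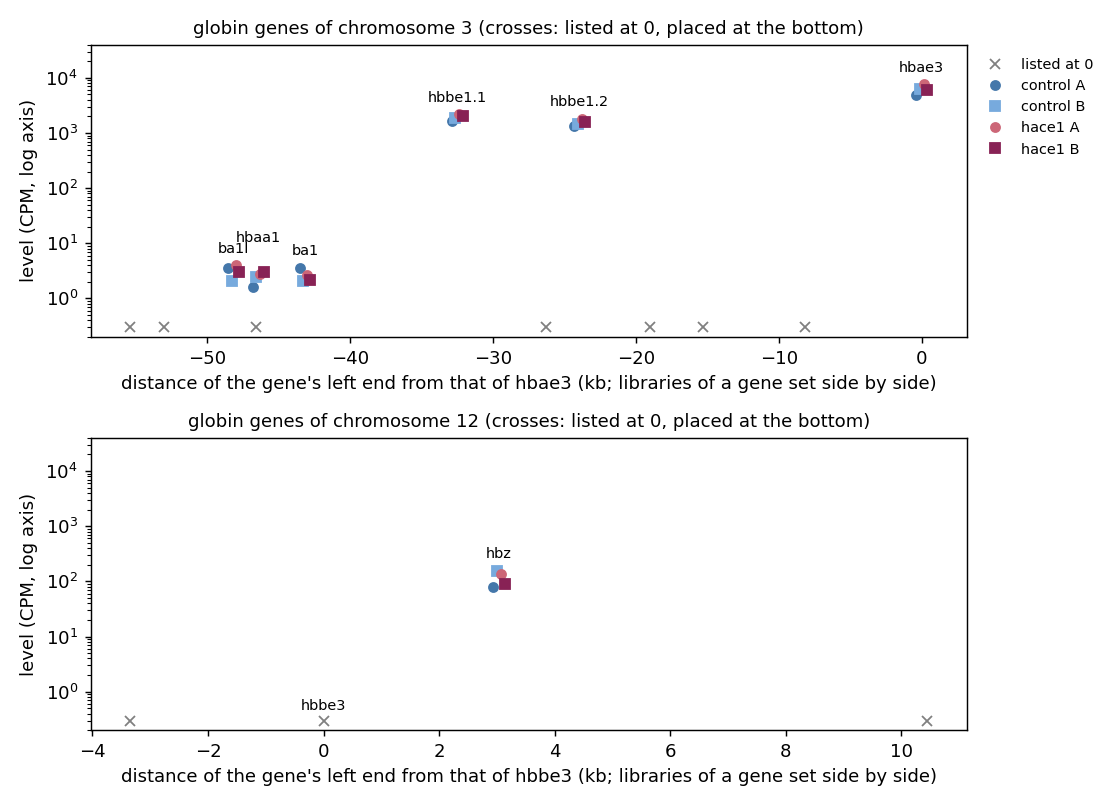
Level in CPM (log y axis) of the globin genes of chromosome 3 and chromosome 12 by library, against the distance in kb from hbae3 or hbbe3. Hbae3, hbbe1.1 and hbbe1.2 stand at 1365 CPM or more in every library, hbaa1, ba1 and ba1l between 1.59 and 4.0 CPM, and 10 genes, hbbe3 among them, are listed at 0 (crosses).

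Per length, the order of levels was hbae3, slc4a1a, cahz, alas2, blvrb, epb41b, fech and gata1a. Hbae3 ran from 8789 to 13625 CPM per kb of exon, and slc4a1a, next in order, from 54.7 to 85.1. Slc4a1a and cahz (51.6 to 82.2 CPM per kb) overlapped in range, as did alas2 (38.8 to 48.6) and blvrb (24.7 to 52.8). The 3 lowest also overlapped, with epb41b at 2.70 to 4.44, fech at 2.40 to 4.17 and gata1a at 1.75 to 5.48 CPM per kb. In the control libraries gata1a was the lowest of the 8, and in both hace1 libraries it was above epb41b and fech.

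The genes were also set against each other within a library, in ratios that need no scaling between libraries. For every 100 alas2 counts there were 4.29 and 4.64 gata1a counts in controls A and B, and 9.92 and 12.9 in hace1 A and B. Blvrb stood at 29.5 and 35.0 per 100 alas2 counts in the controls and 62.1 and 52.0 in the hace1 libraries. Slc4a1a stood at 176 and 197 in the controls and 254 and 268 in the hace1 libraries. For cahz, fech and hbae3 the groups overlapped against alas2. Epb41b, at 11.3 and 14.9 in the controls and 19.3 and 18.6 in the hace1 libraries, did not overlap. Against hbae3, gata1a was at 107 and 72.8 counts per 100000 in the controls and 153 and 241 in the hace1 libraries, so the groups did not overlap there either. Blvrb was at 735 and 549 counts per 100000 hbae3 counts in the controls and 960 and 970 in the hace1 libraries, again without overlap. These blvrb ratios use the gene counts. With the counts on its own exons, the groups would still not overlap against hbae3. With the exon counts of blvrb and BLVRB within the locus added, control A would stand above both hace1 libraries. For slc4a1a the groups overlapped against hbae3, at 4378 and 3083 in the controls and 3935 and 4993 in the hace1 libraries. The groups also overlapped against hbae3 for alas2, cahz and fech. Epb41b, at 281 and 233 in the controls and 298 and 347 in the hace1 libraries, did not overlap. Alas2 and hbae3 were taken as references after their values were seen, and no test was made. No share over all genes was taken to set beside these ratios.

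**Figure D4:**
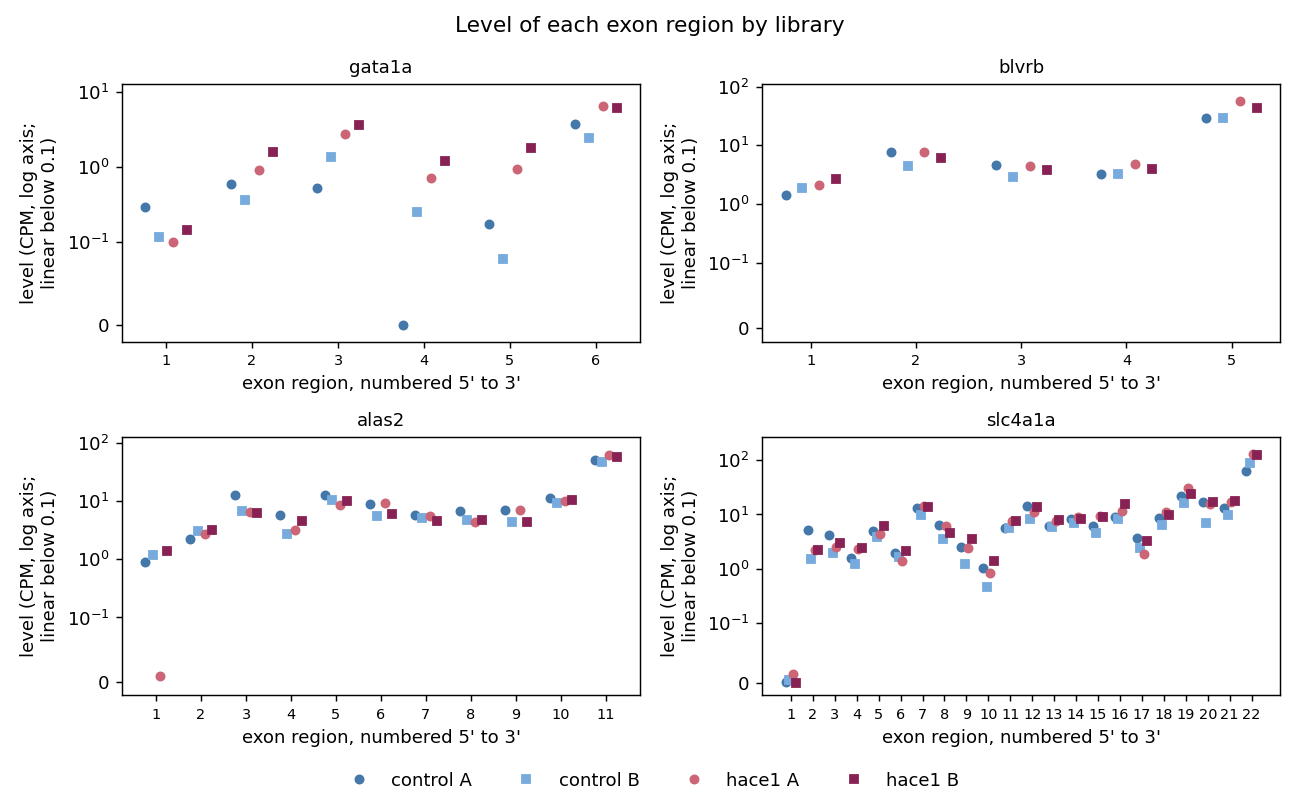
Level in CPM (log y axis, linear below 0.1) of each exon region, numbered from the 5′ end, in the 4 libraries for gata1a, blvrb, alas2 and slc4a1a. The hace1 points lie above both controls in 5 of 6 regions of gata1a, 3 of 5 of blvrb and 1 of 11 of alas2.

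Exon use was not called for any of the 7 genes with at least 2 tested regions, nor for any gene at all (0 of 7164, 0% called; 282 genes at an unadjusted p below 0.05, limma diffSplice). Alas2 had 1 of 11 regions with both hace1 libraries above both controls, its last, and 2 below. Cahz had 2 of 7, region 2 and the last, which held from 63.6% to 76.0% of its exon counts. That last region was at 60.4 and 91.4 CPM in controls A and B and 115 and 95.4 in hace1 A and B. Fech had 2 of 11 with 2 below, and hbae3 1 of 3. Fech had no region with enough counts to be tested. Transcripts of cahz, alas2 and hbae3 were each given mainly to 1 model, with hbae3-202 between 99.1% and 99.6%.

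Among 14 tested erythroid transcription factor genes, gata1a and znfl2a rose and bcl11aa fell, against 1.38% of all tested genes in each direction, and the list's median log2 fold change was -0.09. Bcl11aa is the zebrafish counterpart of BCL11A, a repressor of fetal globin genes in human that is also used in neurons. It was at 106 and 114 CPM in the controls and 67.9 and 70.7 in the hace1 libraries (log2 fold change -0.66 ± 0.16 SE, limma-voom adjusted p = 0.0495). Znfl2a was at 6.97 and 8.61 CPM in the controls and 16.6 in both hace1 libraries (1.07 ± 0.22, 0.0388). Nfe2, which encodes a partner factor at globin genes, had 0.22 ± 0.23 (0.609), and passed without control B (0.0270). The genes tal1, lmo2 and zfpm1, for factors that act with GATA1, were listed at 0.

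For iron, 2 of 5 tested genes rose, against 1.38% of all tested genes. Tfr1b, for a transferrin receptor, was at 12.2 and 8.20 CPM in the controls and 19.7 and 21.9 in the hace1 libraries (log2 fold change 1.08 ± 0.23 SE, limma-voom adjusted p = 0.0398). In zebrafish it is its duplicate tfr1a that red cells need, and tfr1a had 0.23 ± 0.25 (0.629). Hfe2, for hemojuvelin, a co-receptor that acts on hepcidin, had 0.76 ± 0.18 (0.0483). The transferrin gene tfa was lower in both hace1 libraries and not called, at 200.1 and 199 CPM in the controls and 148 and 143 in the hace1 libraries (log2 fold change -0.46 ± 0.16 SE, limma-voom adjusted p = 0.129), and it passed with total counts in place of TMM (0.0436), without control A (0.0225) and without control B (0.0136). Of the 11 tested genes for antioxidant enzymes and organelle clearance, 1 rose, against 1.38% of all tested genes. It was a pyruvate kinase gene annotated as CABZ01066502.1 (now PKLR), with 0.74 ± 0.17 (limma-voom adjusted p = 0.0452). The 4 calls named for iron, ca8 and this kinase, and those of znfl2a and bcl11aa, were each lost without hace1 A and without hace1 B, with limma-voom adjusted p of at least 0.390.

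No gene of erythropoietin and Kit signalling (10 tested) or of blood stem and progenitor cells (7 tested) was called. Jak2a and kitlga had log2 fold changes of 0.13 ± 0.23 SE and 0.07 ± 0.31 (limma-voom adjusted p = 0.792 and 0.911). Gata2a and meis4.1a, the most abundant stem and progenitor genes per length, had 0.24 ± 0.24 and 0.22 ± 0.17 (0.595 and 0.454). Jak2a passed without control A (0.50, limma-voom adjusted p = 0.0164) and gata2a without control B (0.63, 0.00105). The stem and progenitor genes summed to 266 and 314 CPM in the controls and 301 and 345 in the hace1 libraries. The erythropoietin receptor gene epor was listed at 0.

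Markers of other blood and vessel cells were not called, and their part in the rise of gata1a was not tested. Gata1a is also used by thrombocytes, the fish counterpart of platelets. Of 5 tested thrombocyte genes 0 were called, with a median log2 fold change of 0.40, and their summed level was 55.4 and 70.7 CPM in the controls and 78.7 and 78.1 in the hace1 libraries. The highest of them per length, gp1bb, had 0.40 ± 0.19 SE (limma-voom adjusted p = 0.238), and the defining gene itga2b was listed at 0. Macrophage and neutrophil genes, 11 tested and 0 called, had a median log2 fold change of 0.34. They summed to 105 and 124 CPM in the controls and 138 and 208 in the hace1 libraries. Much of the sum in hace1 B came from a pair of matrix metalloproteinase genes. Mmp9 was at 10.9 and 13.9 CPM in the controls and 18.5 and 64.5 in the hace1 libraries (log2 fold change 1.47 ± 0.48 SE, limma-voom adjusted p = 0.109), and it passed without control A, without control B and without hace1 A (1.57e-06, 1.15e-08 and 0.0226). Mmp13a was at 4.5 and 13.5 CPM in the controls and 3.81 and 42.5 in the hace1 libraries (0.63 ± 0.89, 0.716), and it passed without control B (0.000354). Without mmp9 and mmp13a the list summed to 89.5 and 96.9 CPM in the controls and 116 and 101 in the hace1 libraries. Of the other genes of the list, cyba had 0.32 ± 0.26 (limma-voom adjusted p = 0.491) and npsn 0.56 ± 0.23 (0.176), and the neutrophil gene lyz was listed at 0. Both hace1 libraries lay above both controls for 4 of the 11 and below for 3, against 26.7% and 26.9% of all tested genes. The largest decrease was in cybb, at 9.77 and 5.52 CPM in the controls and 3.31 and 4.02 in the hace1 libraries (log2 fold change -0.95 ± 0.33 SE, limma-voom adjusted p = 0.125). Without control B some genes of the list were called lower as well. Endothelial genes, 9 tested and 0 called, had a median log2 fold change of 0.19. They summed to 333 and 322 CPM in the controls and 357 and 349 in the hace1 libraries. Both hace1 libraries lay above both controls for 4 of the 9 and below for 1, against the same 26.7% and 26.9%. Cldn5b had 0.19 ± 0.17 SE (limma-voom adjusted p = 0.560) and efnb2a -0.07 ± 0.16 (0.840), and kdrl was listed at 0.

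**Figure D5:**
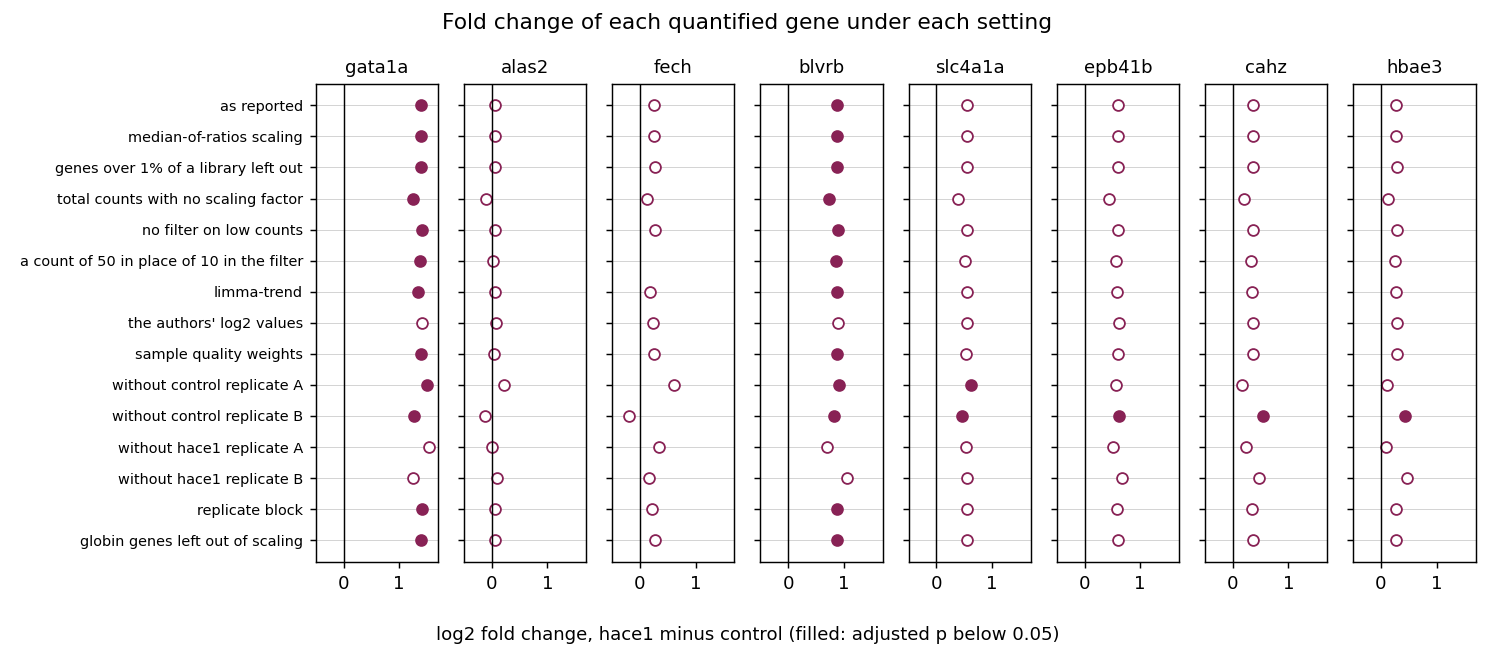
Log2 fold change, hace1 minus control (x axis), of each quantified gene under each setting (rows), filled where the adjusted p was below 0.05. Gata1a stays between 1.25 and 1.53 and blvrb between 0.70 and 1.05, while alas2 lies between -0.12 and 0.22.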

How the data were processed

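The authors deposited estimated counts, which need not be whole (94.3% of values of quantified genes were not), for genes, exons and transcripts in an annotation file, and a table of log2 values per gene, centred on the median of the gene. The submitters' processing notes name cutadapt 1.2.1, Bowtie2 2.0.2, TopHat2 2.0.6 and DESeq and the genome build Zv9, and no source used here gives the counting program or its strand setting. The deposited counts are stored as named pairs, so their unit was recorded as other and count models were not used. All 4 value columns of each kind matched a sample, and 0 were left over. Groups came from the injected morpholino in the labels.

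Tested were the 10832 genes that had, in 2 or more libraries, a count of at least 10 after scaling to the median library, and a total of 15. Counts were scaled by TMM (own implementation, trimming 30% of log ratios and 5% of levels). Limma-voom (limma 3.58.1, R 4.3.3) was fitted with 1 term, the group, and p-values were adjusted over all tested genes by Benjamini-Hochberg. Exon use was tested with limma diffSplice. The gene fit was also run on simulated counts with a fixed spread for all genes, which does not show how it performs on these libraries. The 10 genes, the gene lists and the tests were chosen with earlier results of these data known. Named were the 10 genes, hace1, each globin gene with a value, and from each list up to 4 called genes or, with none called, the 2 of highest level per length. Alad, hmbsa, hmbsb, uros, cpox, ppox, gata1b, slc4a1b, epb41a, sptb, rhag, ank1, blvra, hmox2b, tfr1a, tfa, mmp9, mmp13a, cybb, BLVRB and ela2l were added after their values were seen.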

Additional observations from a re-analysis of the deposited data

How the results depend on the processing

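The number of tested genes called moved from 299 to 628 with total counts in place of TMM (105 higher, 523 lower), 649 with sample quality weights and 1 with the authors' log2 values, and it ranged from 6 to 2567 when 1 library was left out. Total counts shifted the median of all genes to -0.14 on the log2 scale. The number of the 10 genes called higher, 2 as reported, was 0 with the authors' log2 values and ranged from 0 to 6 when 1 library was left out, and the number called for exon use ranged from 0 to 1. The A minus B differences of the groups correlated at -0.0093 over 6390 genes, so the replicate letters showed no pairing across those genes as a whole. A correlation over all of them cannot show whether some genes were paired. With a replicate block 914 genes were called, and gata1a and blvrb were among them (limma-voom adjusted p = 0.000382 and 0.000984), as were hmbsb (0.0189), sptb (0.0414), ank1 (ENSDARG00000059093, 0.0209), mmp9 (1.23e-09) and mmp13a (0.000702). Leaving the globin genes out of the scaling, chosen after seeing the data, gave 298 called genes. The cause was not tested for any of these changes.

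Some genes that had not passed the test turned in direction. With total counts the log2 fold change of alas2 was -0.10, of hbz -0.14, of ISCU -0.10, of jak2a -0.015, of kitlga -0.080, of ppox -0.13, of rhag -0.020, of ank1 (ENSDARG00000092143) -0.032 and of blvra -0.074. Ppox was also -0.011 with a count of 50 in the filter, -0.036 with limma-trend, -0.015 with the authors' log2 values and -0.015 with a replicate block. When 1 library was left out, alas2 ranged from -0.12 to 0.22, fech from -0.20 to 0.61, hbz from -0.45 to 0.48, ba1 from -0.59 to 0.21, ba1l from -0.054 to 0.74, mb from -0.27 to 0.15, ISCU from -0.14 to 0.26, jak2a from -0.28 to 0.50 and kitlga from -0.27 to 0.46. Likewise gata2a ranged from -0.17 to 0.63, cyba from -0.096 to 0.83, nfe2 from -0.12 to 0.63, uros from -0.056 to 0.38, ppox from -0.38 to 0.32, tfr1a from -0.18 to 0.55, mmp13a from -1.11 to 2.35, this ank1 gene from -0.061 to 0.31 and blvra from -0.026 to 0.15. The calls of hfe2, ca8, bcl11aa and CABZ01066502.1 were also lost under at least 1 setting that kept all libraries and the deposited counts. Fech could not be tested with a count of 50 in the filter. Depth limits gata1a and fech most, at no more than 142 counts in any library.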
